A study of Sus scrofa with 16 samples.

Results

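*CLDN6* and *CLDN9* were examined in myocardial RNA of young swine after ischemia/reperfusion (IR) injury, as 2 of the 22629 genes quantified. The pair was selected on these same data, because *CLDN6* was higher and *CLDN9* lower in IR than in sham pigs in the scar zone. The scar zone values of both genes, and their sum and ratio there, are therefore a description and carry no test. Tests were made in the border zone, which the selection did not use, although its samples come from the same animals.

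The pigs were White Yorkshire-Landrace farm pigs operated on at about 1 month of age. IR pigs had 1 h of occlusion of the left anterior descending coronary artery followed by reperfusion, and sham pigs had the surgery with no occlusion. Left ventricular tissue was frozen 4 weeks later from 4 IR pigs (pigs 2, 9, 11 and 14) and 4 sham pigs (pigs 4, 5, 12 and 13), with 2 females and 2 males in each surgery group. Both zones were sampled once in every animal. Tissue called scar zone came from below the occlusion site and in IR pigs mixed scar with surviving muscle, while in sham pigs it is only the piece from that position. The border zone was the ventricle next to it. In sham pigs the chest was opened and a suture placed around the artery without tightening it, so their tissue was operated on too. Per the study's methods, all animals received amiodarone, and the IR pigs also received heparin before the occlusion, which cannot be told apart from the occlusion here.

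Claudins are membrane proteins with 4 transmembrane segments that form the strands of tight junctions and set which ions pass between neighbouring cells. *CLDN6* is known from embryonic and fetal epithelia and is silent in most adult tissues, and *CLDN9* is known from the inner ear and other epithelia. Cardiomyocytes form no classical tight junctions, and tight junctions in the ventricle are chiefly those of endothelial cells. In the RefSeq pig annotation *CLDN6* and *CLDN9* are direct neighbours on the same chromosome, with *TNFRSF12A* on the other side of *CLDN6*. No sequence of either gene was used here.

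Markers of heart muscle were high in every sample. The 7 cardiomyocyte markers (*TNNT2*, *TNNI3*, *MYH7* and others) summed to between 44350 and 66500 TPM in the 16 samples. The scar label was less evident, since the sum of 5 fibroblast markers exceeded the sham scar range (923 to 1277 TPM) in IR scar samples of pigs 9 and 11 only, with 999 TPM in pig 2 and 783 TPM in pig 14. The total of estimated counts ran from 15427663 to 49045206 over the samples. By these totals 3 counts equal 0.194 to 0.0612 CPM, the counts scaled to a common library total. The CPM values of the genes below are also TMM-scaled, so this floor is approximate for them. Both claudins were measured with few counts, since their joint estimated count was between 45 and 118 in a sample. For counting error of the joint count alone, the exact Poisson interval (95%) is 32.8 to 60.2 for 45 counts. For 118 counts it is 97.7 to 141. These intervals do not cover either gene by itself, whose estimate also depends on the division of shared read pairs described below. The tissue was bulk, so fewer cells of a type and less RNA per cell cannot be told apart.

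In the scar zone, *CLDN6* was the gene with the larger share of the joint count in every IR pig and *CLDN9* in every sham pig. *CLDN6* stood at 2.60, 2.17, 3.53 and 2.52 CPM in IR pigs 2, 9, 11 and 14. In sham pigs 4, 5, 12 and 13 it stood at 0.873, 0.557, 0.232 and 0.488 CPM. The 4 IR samples all lay above the 4 sham samples, with means of 2.71 ± 0.582 and 0.538 ± 0.264 CPM (SD, n = 4 each), a ratio of 5.03.

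*CLDN9* had the opposite order. It was listed at 0 in the IR scar samples of pigs 2, 9 and 11, and stood at 0.676 CPM in pig 14. Sham pigs 4, 5, 12 and 13 had 3.46, 2.03, 2.66 and 2.75 CPM of it. The groups did not overlap, and the means were 0.169 ± 0.338 CPM in IR pigs and 2.73 ± 0.587 CPM in sham pigs (SD, n = 4 each). On the length-corrected TPM scale, *CLDN6* averaged 6.21 ± 1.48 and *CLDN9* 0.388 ± 0.776 in the IR scar zone (SD, n = 4). In the sham scar zone *CLDN6* averaged 1.07 ± 0.572 TPM and *CLDN9* 6.45 ± 1.74 TPM, so the higher of the 2 genes in one group had about the level of the higher gene in the other.

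The sum of the 2 genes did not separate the surgery groups in the scar zone. It was 2.60, 2.17, 3.53 and 3.20 CPM in IR pigs 2, 9, 11 and 14. Sham pigs 4, 5, 12 and 13 had sums of 4.34, 2.59, 2.89 and 3.24 CPM. The 2 ranges overlapped, and the IR mean of 2.87 ± 0.609 CPM was 0.881 times the sham mean of 3.26 ± 0.763 CPM (SD, n = 4 each). The log2 ratio of *CLDN6* to *CLDN9*, with 0.5 counts added to each, averaged 5.95 ± 2.80 in IR and -2.41 ± 0.722 in sham pigs, with no overlap.

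**Figure D1:**
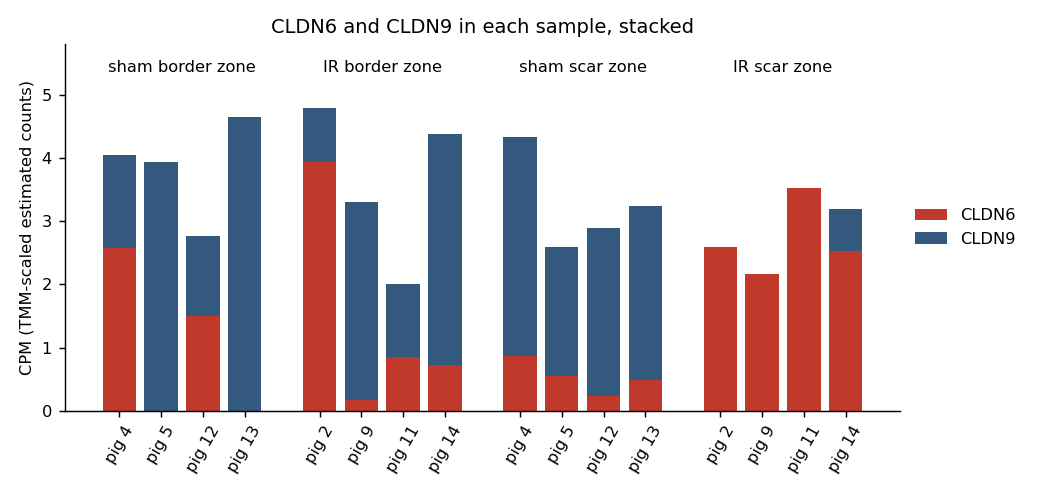
Stacked bars of *CLDN6* (red) and *CLDN9* (blue) in each of the 16 samples, in TMM-scaled CPM on the vertical axis, with the pigs of each surgery group and zone on the horizontal axis. The height of the whole bar lies between 2.01 and 4.78 CPM, while the red part runs from 0 to the whole bar, and the blue part is missing in 3 of the 4 IR scar samples.

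In the border zone, where the pair was not selected, the 2 genes varied widely within each surgery group. *CLDN6* stood at 3.93, 0.173, 0.856 and 0.727 CPM in IR pigs 2, 9, 11 and 14. In sham pigs 4, 5, 12 and 13 it stood at 2.57, 0, 1.51 and 0 CPM. The groups overlapped, with IR pig 2 above every sham sample and sham pigs 5 and 13, at 0, below every IR sample.

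*CLDN9* in the border zone stood at 0.854, 3.13, 1.15 and 3.66 CPM in IR pigs 2, 9, 11 and 14. The values of sham pigs 4, 5, 12 and 13 were 1.47, 3.94, 1.26 and 4.65 CPM. The pigs with the most *CLDN9* were those with the least *CLDN6*, in both surgery groups. With edgeR's quasi-likelihood test over all 13728 genes tested in the border zone, the log2 fold change of IR against sham was 0.44 (SE 1.18) for *CLDN6* and -0.37 (SE 0.55) for *CLDN9*, with Benjamini-Hochberg adjusted p of 0.993 and 0.988. Without pig 2 the *CLDN6* value turned to -0.83.

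No gene of the border zone passed an adjusted p of 0.05 and a fold change of 2 with edgeR, which is 0% of the genes tested, and 4 did with DESeq2 and 0 with limma. At the unadjusted p, 109 genes did with edgeR (0.794%), and neither *CLDN6* nor *CLDN9* was among them. In the scar zone the corresponding values were 0% with edgeR (61 genes with DESeq2, 3 or 1 with limma) and, unadjusted, 470 of 14023 genes (3.35%). *CLDN6* and *CLDN9* are among those 470, as the selection of the pair implies, and nothing is read from it.

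The sum of the pair was also compared in the border zone. It was 4.78, 3.30, 2.01 and 4.38 CPM in IR pigs 2, 9, 11 and 14. In sham pigs 4, 5, 12 and 13 it was 4.04, 3.94, 2.77 and 4.65 CPM. The means of 3.62 ± 1.24 and 3.85 ± 0.787 CPM (SD, n = 4 each) differed by less than the spread between pigs. On the log2 scale the difference of IR minus sham was -0.14, with a two-sided exact permutation p of 0.686. Fitted by edgeR as 1 gene, the pair had a log2 fold change of -0.10 (SE 0.30, adjusted p = 0.993) in the border zone and, as a description, -0.19 (SE 0.25) in the scar zone.

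The log2 ratio of *CLDN6* to *CLDN9* in the border zone was 2.17, -4.07, -0.42 and -2.29 in IR pigs 2, 9, 11 and 14. The ratios of sham pigs 4, 5, 12 and 13 were 0.80, -7.28, 0.25 and -7.72. Both groups held positive and strongly negative values. The mean of IR minus sham was 2.33, with group SDs of 2.67 and 4.64, and the exact permutation p was 0.4. The large difference in ratio of the scar zone thus had no counterpart that could be told from the spread in the border zone, although whether the IR effect differs between zones was not tested, because the scar samples had selected the pair.

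Sex was balanced over the surgery groups and had no part in the selection. The log2 of the summed CPM in the border zone averaged 2.11 ± 0.125 in the 4 females and 1.62 ± 0.499 in the 4 males (SD). The difference of 0.49 had an exact permutation p of 0.114. The log2 ratio of *CLDN6* to *CLDN9* was 1.34 higher in females than in males, within SDs of 4.19 and 3.68, with an exact permutation p of 0.629. After Benjamini-Hochberg adjustment over the 4 exact permutation tests of sum and ratio, by surgery and by sex, the lowest value was 0.457. With 4 pigs against 4 the smallest two-sided p is 0.0286.

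*CLDN6* and *CLDN9* were inversely related over the 8 border zone samples. Pearson's r of their log2 CPM was -0.87 and Spearman's rho was -0.87. Taken as deviations from the means of the surgery groups, r was -0.86. Without the 2 samples farthest from the median of *CLDN6*, the sham samples of pigs 5 and 13 in which it was 0, r was -0.77 over 6 samples. The 2 genes share read pairs in these samples, as the next values show, so a negative r follows in part from dividing 1 pool of pairs. The values are therefore a description, and no p is given against an r of 0.

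The estimated counts themselves show that read pairs were divided between the 2 genes. Kallisto gives a fraction where read pairs open to several transcripts are split between them. A whole number arises where no pair is shared, or where 1 transcript takes all the shared pairs. *CLDN6* and *CLDN9* each had a fractional count in 11 of 16 samples, and in the other 5 one of them was 0. Their sum was a whole number, within 0.01, in each of the 11 samples in which both were fractional. In the other 5 the count was whole already, and the sum adds nothing there. In the IR border sample of pig 9, for example, 6.08358 and 109.916 counts add to 116. A whole sum leaves no fraction for any further gene, and *TNFRSF12A*, the neighbour on the other side of *CLDN6*, was fractional in 0 samples.

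Such a division is not particular to these claudins. Over all genes, 58.6% of the values above 0 were whole. Of 14948 pairs of genes that follow each other in the RefSeq order, 2667 had both members fractional in at least 8 samples, and in 283 of these (10.6%) the sum was whole in every such sample. *CLDN6* and *CLDN9* are one of the 283, and 2 more claudins are among them. *CLDN15* and its neighbour *FIS1* had a whole sum in 14 of 14 samples, and *CLDN7* and its neighbour *ELP5* in 15 of 15. RefSeq was used for the order only, since the annotation release of the index is not stated in the sources used here.

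How many pairs were open to both genes could be solved from the deposited values. Kallisto shares an ambiguous pair in proportion to each transcript's own estimate divided by its effective length, and repeats this until the estimates no longer move. Pairs that only 1 gene can explain set where this ends, and without them the transcript with the shorter effective length takes all shared pairs. The ratio of estimated count to TPM gives the relative effective lengths, and that of *CLDN9* was between 0.836 and 0.849 of that of *CLDN6* in the 11 samples with both above 0. The calculation assumes 1 transcript per gene and estimates that had stopped moving. It was not checked against the reads, and it was chosen after the values had been seen.

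In each of those 11 samples exactly 1 set of whole numbers met the equation within 0.0005. In all 11 it held 0 pairs open to *CLDN9* alone, between 1 and 13 pairs open to *CLDN6* alone, and the rest, between 86.9% and 99.1%, open to both. Recomputed from these whole numbers, the *CLDN9* counts differed from the deposited ones by at most 0.00113. In this equation each pair open to *CLDN6* alone carries between 6.08 and 6.61 counts from *CLDN9* to *CLDN6*, and *CLDN9* reaches 0 once such pairs make up between 15.1% and 16.4% of the total.

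**Figure D2:**
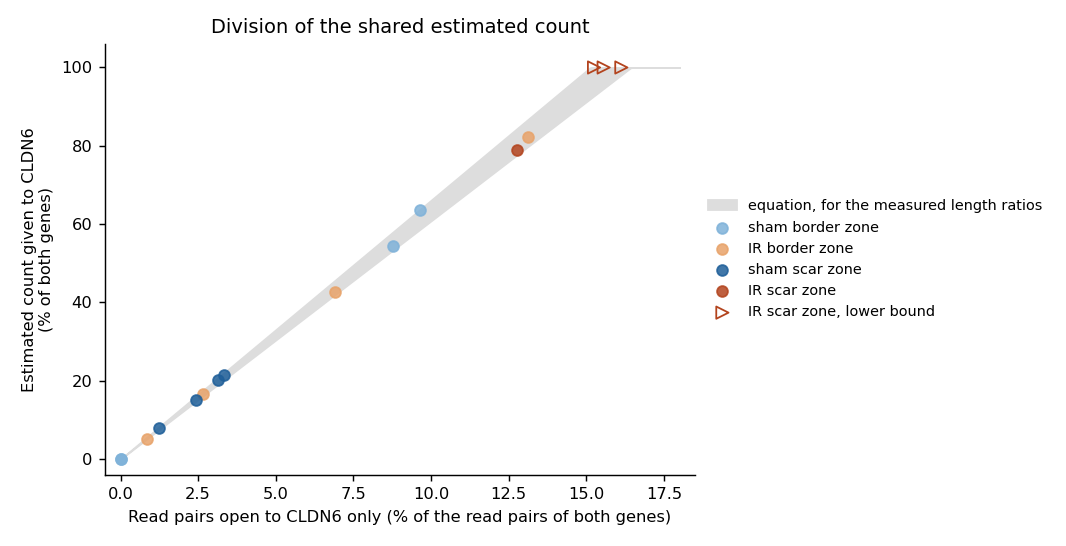
The share of the joint estimated count given to *CLDN6* (vertical axis, %) against the share of read pairs open to *CLDN6* only (horizontal axis, %), 1 point per sample and 1 colour per group. The grey band is the equation for the length ratios of 0.836 to 0.849, and open triangles are the 3 IR scar samples with *CLDN9* at 0, for which only a lower bound of the horizontal value is known. Shares of 0% to 100% on the vertical axis go with 0% to about 16% on the horizontal one. The points were solved with the same equation as the band and so lie on it by construction.

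Under these assumptions, the solved *CLDN6*-only pairs of the border zone samples were 13 of 99, 1 of 116, 6 of 87 and 2 of 75 pairs in IR pigs 2, 9, 11 and 14. Those of sham pigs 4, 5, 12 and 13 were 8 of 83, 0 of 77, 5 of 57 and 0 of 105 pairs. Taken as 3 pairs of the total, a count of 0 allows a share of up to 3.90% in pig 5 and 2.86% in pig 13, and the upper ends of their exact binomial intervals (95%) are 4.68% and 3.45%. The exact binomial interval (95%) of the highest share, 13.1% in pig 2, is 7.18% to 21.4%. All of these cover counting error only. The shares averaged 5.89% ± 5.45 in IR and 4.60% ± 5.33 in sham pigs (SD, n = 4 each), with a two-sided exact permutation p of 0.743. By the equation these shares follow from the division of the count, so the test repeats that of the ratio on another scale. It was not planned and is not among the 4 tests adjusted together.

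In the scar zone, as a description, the solved *CLDN6*-only pairs of sham pigs 4, 5, 12 and 13 were 3 of 96, 2 of 60, 1 of 80 and 2 of 82. IR pig 14 had 6 of 47. For IR pigs 2, 9 and 11, where *CLDN9* is listed at 0, the highest length ratio gives at least 7 of 45, 15 of 93 and 18 of 118 pairs. Together these come to at least 46 of 303 pairs in the 4 IR samples and 8 of 318 in the 4 sham samples, or 2.52%. These numbers are computed from the same counts that selected the pair and restate that difference in read pairs.

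Within a pig, the scar and border zone samples often differed in which gene took the count. *CLDN9* was lower in the scar than in the border sample in 4 of 4 IR pigs, by 0.854 to 3.13 CPM, and in 2 of 4 sham pigs. *CLDN6* was higher in the scar than in the border sample in 3 of 4 IR pigs, the exception being pig 2 with a difference of -1.33 CPM, and in 2 of 4 sham pigs. Sham pigs also showed wide differences between zones. Pig 4 went from 2.57 CPM of *CLDN6* in the border to 0.873 in the scar zone while its *CLDN9* went from 1.47 to 3.46, and pig 13 went the other way. The sum was higher in the scar sample in 1 of 4 IR and 2 of 4 sham pigs.

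**Figure D3:**
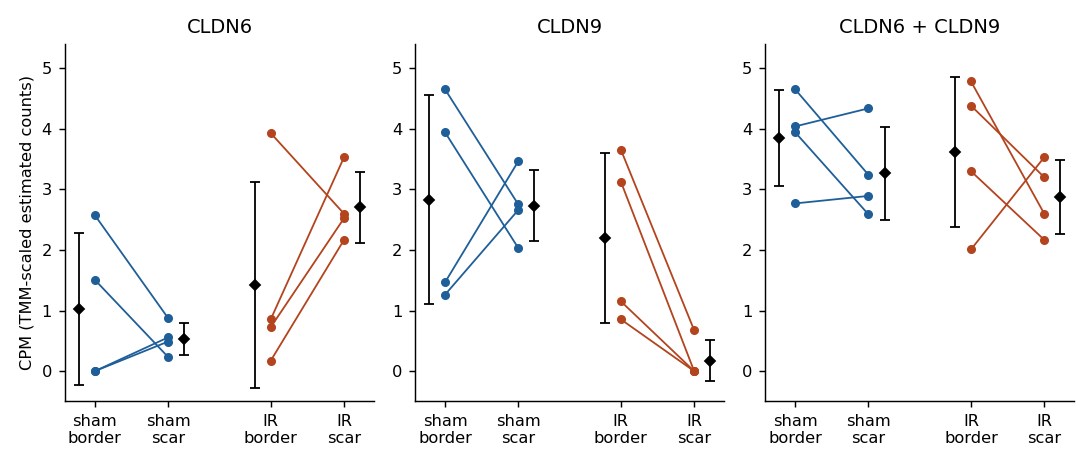
*CLDN6*, *CLDN9* and their sum in TMM-scaled CPM, with a line joining the border and scar zone samples of each pig (blue sham, red IR) and black diamonds with bars for the mean and SD of 4 pigs. *CLDN9* goes down in all 4 IR pigs and in 2 of 4 sham pigs, and the sums of IR and sham pigs overlap in both zones.

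The rest of the claudin family was examined in the same fits. The tables hold 23 symbols that begin with CLDN, among them *CLDND1* and *CLDND2*, which encode claudin domain-containing proteins. Of the 23, 4 were at 0 in all samples and 12 never exceeded 20 counts, so much of the family was at or near the detection limit. By median TPM over the 16 samples the highest were *CLDND1* (24.4), *CLDN7* (5.46), *CLDN9* (3.82), *CLDND2* (3.54), *CLDN10* (1.88), *CLDN6* (1.72) and *CLDN12* (1.44). The ranges of *CLDN6* (0 to 8.12 TPM) and *CLDN9* (0 to 11.5 TPM) covered those of *CLDN10* and *CLDN12* and overlapped each other, so these neighbours in the order could not be ranked. The values of *CLDN6* and *CLDN9* also depend on how their shared read pairs were divided. In the 11 samples solved above, 0 pairs were open to *CLDN9* alone, so its place in this order is uncertain. *CLDN5*, the main endothelial claudin, was not analysed here.

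Apart from *CLDN6* and *CLDN9*, 8 of 21 symbols passed the filter in the border zone and 9 in the scar zone. Of the 8, 0 passed a fold change of 2 at the adjusted or the unadjusted p in the border zone with edgeR. The shares of all genes were 0% and 0.794%. At an unadjusted p of at most 0.05 with no fold change threshold 0 of the 8 passed, a share that was not counted over all genes. Their median log2 fold change was 0.22, beside 0.00 over all genes tested. In the scar zone 1 of 9 passed at the unadjusted p, beside 3.35% of all genes, namely *CLDN19*, a claudin of kidney tubules and myelinating Schwann cells, with a log2 fold change of 1.04 (SE 0.41, edgeR adjusted p = 0.438) from at most 24.4 counts. *CLDN7*, a claudin of simple epithelia, had a log2 fold change of -0.88 (SE 0.31, edgeR adjusted p = 0.438), short of a fold change of 2. *CLDN7* also shares read pairs with *ELP5*, so its value is uncertain in the same way. The median of the 9 was 0.18 beside 0.03 over all genes.

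**Figure D4:**
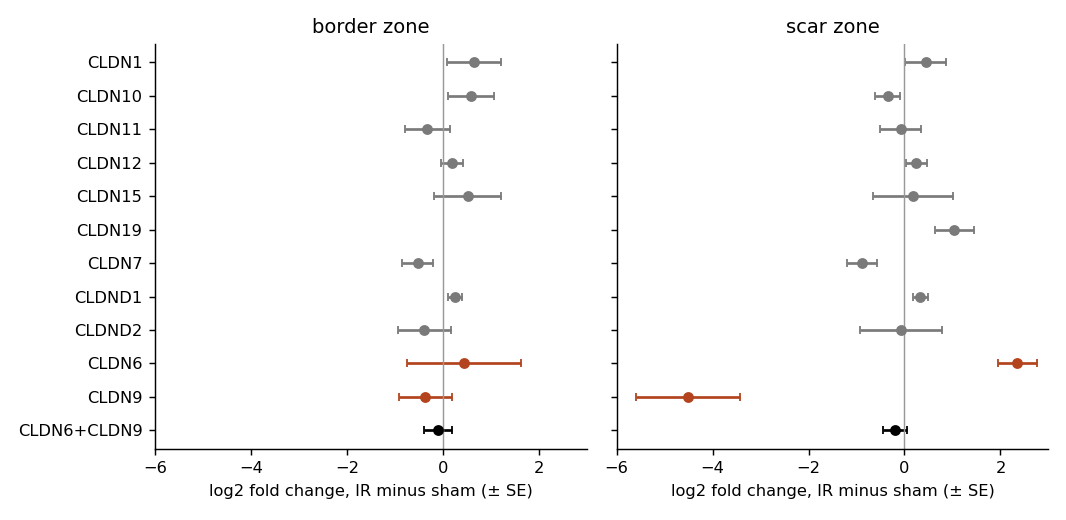
Log2 fold change of IR minus sham with its standard error for the claudin symbols that passed the filter, in the border zone (left) and the scar zone (right), fitted by edgeR on 4 against 4 pigs. Red marks *CLDN6* and *CLDN9*, which were selected on the scar zone values, and black marks the 2 genes summed. The red points lie at 2.35 and -4.51 in the scar zone, and the black point at -0.19.

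Between zones, 0 genes passed the adjusted threshold with edgeR in either surgery group, and with DESeq2 1 did in sham and 3 in IR pigs. At the unadjusted p, 14 of 13803 genes did in sham pigs (0.101%) and 250 of 14170 in IR pigs (1.76%). With the pig as a replicate block the sham count was 28. Of the 9 other claudin symbols tested in IR pigs, *CLDN15* was the only one to pass, higher in the scar zone by a log2 fold change of 1.15 (SE 0.43, edgeR adjusted p = 0.989). Its count is divided with *FIS1*, so this value is uncertain. In sham pigs 0 of 9 passed.

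Of 18 further tight junction genes (scaffolds such as *TJP1* and *CGNL1*, junction adhesion molecules such as *F11R*, *JAM2* and *JAM3*, and the tetraspan proteins *OCLN* and *MARVELD2*), 17 were in the tables and 16 passed the filter. In both zones 0 of 16 passed a fold change of 2 at the adjusted or the unadjusted p, beside unadjusted shares of 0.794% (border) and 3.35% (scar) of all genes. *JAM3* had the lowest unadjusted p of the list in the border zone, with a log2 fold change of -0.44 (SE 0.13, edgeR adjusted p = 0.988). *OCLN*, the occludin gene, had -0.48 (SE 0.18, edgeR adjusted p = 0.988). The medians of the 16 were 0.00 in the border zone and -0.02 in the scar zone.

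Markers of other cell types were set beside *CLDN6* in the scar zone. The 5 fibroblast markers (*COL1A1*, *COL1A2*, *PDGFRA*, *DCN* and *LUM*) summed to 4607 and 5898 TPM in IR pigs 9 and 11, while pigs 2 and 14 were within or below the sham range, as given above. The 6 leucocyte markers summed to 60.2, 188, 115 and 60.7 TPM in the same 4 pigs, against 35.5 to 95.8 in sham pigs. The 6 endothelial markers summed to 240 to 323 TPM in IR and 274 to 316 TPM in sham pigs.

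Of 8 epithelial markers 7 were in the tables, and they summed to 7.05, 32.9, 25.4 and 4.62 TPM in IR scar samples of pigs 2, 9, 11 and 14, against 3.02 to 8.09 in sham pigs. Most of this was *KRT8*, a keratin of simple epithelia (3.70 to 30.2 TPM in the IR scar zone). Scar zone log2 fold changes were above 0 in 3 of the 4 that passed the filter, with a median of 1.37 beside 0.03 over all genes, and 2 passed at the unadjusted p, beside 3.35% of all genes. These were *KRT8*, with a log2 fold change of 1.43 (SE 0.57, edgeR adjusted p = 0.438), and *ESRP1*, an epithelial splicing regulator, with 1.85 (SE 0.51, edgeR adjusted p = 0.438). *ESRP1* stood at 0.134 to 0.294 TPM in the IR scar zone, from 11.45 to 33.12 counts. In the sham scar zone it stood at 0.0200 to 0.0627 TPM, from 2.04 to 7.79 counts. *CDH1*, the gene of E-cadherin, averaged 1.16 ± 1.05 TPM in the IR and 0.401 ± 0.263 TPM in the sham scar zone, and *KRT18* 0.626 ± 0.552 and 0.105 ± 0.0369 TPM (SD, n = 4 each). *EPCAM*, a defining epithelial surface marker, was between 0.0206 and 0.131 TPM in all 16 samples, and *ELF3* was under 3 counts in each. In the border zone the epithelial sums were 21.8, 5.25, 17.7 and 4.93 TPM in IR pigs 2, 9, 11 and 14 and 4.36, 6.22, 11.7 and 4.59 TPM in sham pigs 4, 5, 12 and 13. Pigs 2, 11 and 12, with 3 of the 4 highest *CLDN6* shares of the border zone, had the 3 highest sums, and pig 4 with the second-highest share had the lowest. The 4 mesothelial markers in the tables, of 7 listed, summed to 2.95, 9.65, 11.8 and 2.57 TPM in IR scar samples of pigs 2, 9, 11 and 14. Their sums in the sham scar zone were 2.74 to 3.91 TPM. The 3 skeletal muscle markers in the tables, of 5 listed, summed to at most 0.252 TPM in any sample. The part of these cell types in the *CLDN6* and *CLDN9* values was not tested.

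Genes around the pair were taken from RefSeq within 100 kb, and 14 of 18 were in the tables. In the border zone 0 of 11 tested passed the unadjusted threshold, beside 0.794% of all genes, and in the scar zone 1 of 12 did, beside 3.35%. That gene was *TNFRSF12A*, the neighbour of *CLDN6*, which encodes the TWEAK receptor Fn14. It stood at 136, 117, 201 and 101 TPM in the IR scar samples of pigs 2, 9, 11 and 14, and at 54.6, 32.2, 52.6 and 72.6 TPM in those of sham pigs 4, 5, 12 and 13. Its log2 fold change was 1.20 (SE 0.28, edgeR adjusted p = 0.438).

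In the border zone *TNFRSF12A* stood at 256, 26.3, 182 and 107 TPM in IR pigs 2, 9, 11 and 14, and at 41.0, 30.3, 87.6 and 79.0 TPM in sham pigs 4, 5, 12 and 13. Pigs 2 and 11 were the highest for this gene and also led the IR pigs in *CLDN6*-only pairs, with 13 and 6, and pig 9 was the lowest for both. The sham pigs did not show that order, since pig 4 had 8 such pairs at 41.0 TPM and pig 13 had 0 at 79.0 TPM. Its log2 fold change in the border zone was 1.29 (SE 0.58, edgeR adjusted p = 0.988). Whether the *CLDN6*-only pairs have any relation to *TNFRSF12A* transcripts was not tested.

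Among 12484 genes listed by symbol and tested in the border zone, those with the pattern most like *CLDN6* over the 8 samples were *MTHFS* (r = 0.95), *CDC26* (r = 0.95), *ABHD12* (r = 0.95), *GRIPAP1* (r = 0.94) and *CNOT11* (r = 0.94). Those most like *CLDN9* were *PRRG3* (r = 0.95), *ZNF544* (r = 0.95), *INTS12* (r = 0.95), *KLF3* (r = 0.95) and *ZFYVE26* (r = 0.93). These are the highest of many correlations over 8 samples and are given as a description. Neither list held another claudin or tight junction gene of the fixed lists.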

How the data were processed

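Polyadenylated RNA was sequenced as stranded libraries of 75 bp read pairs. The authors trimmed reads with Trimmomatic 0.33, aligned them with HISAT2 2.0.5 and quantified transcripts with kallisto 0.43.1 on Ensembl pig cDNA, with versions from the submitters' processing notes. The genome build and annotation release are not given in the sources used here. They deposited estimated counts per gene, unscaled for depth, and TPM per gene, scaled for effective length and depth.

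For edgeR the estimated counts were rounded, and version 4.0.16 was run in R 4.3.3 (TMM scaling, filterByExpr with minimum count 10 and minimum total 15, quasi-likelihood test, Benjamini-Hochberg over all genes tested). A call needed a fold change of at least 2 and an adjusted p of at most 0.05, and the unadjusted p was counted beside it. The authors used RUVSeq, which was not used here. CPM are TMM-scaled over 16 samples, and log2 CPM has a prior of 2 counts. For the sum and ratio 0.5 counts were added to each gene. Exact permutation tests were two-sided (scipy 1.17.1). Alternatives were DESeq2 1.42.0, limma 3.58.1 on log2(TPM + 1) and log2(TPM + 0.1), upper-quartile scaling, no filter, sex as covariate, 1 fit of all samples, and leaving out each pig.

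The replicate number is the pig. Scar and border samples of the same animal deviated together (correlations of 0.342 to 0.781 in all 8 pigs), so tests between zones were also run with the pig as a block. No 2 samples held identical values. *CLDN6*, *CLDN9* and the lists were chosen with earlier results of these data known. Named genes were all symbols beginning with CLDN, 18 tight junction genes, genes within 100 kb in RefSeq (Sscrofa11.1, used for names and order), and the 5 genes best correlated with each member in the border zone. Of 7534 genes listed by Ensembl ID, 915 were paired with a symbol. The scripts were tested on simulated data.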

Additional observations from a re-analysis of the deposited data

Results flagged for a closer look

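*CLDN9* in the IR scar sample of pig 14, at 0.676 CPM, stood apart from the other 3 samples of its group, all of which were at 0, so its gap to them was the whole range of the group. With 3 of 4 values at 0, any other value gives this gap, so the usual rate of 1 in 20 groups by chance does not apply, and these values are among those that selected the pair. Without pig 14 the fitted log2 fold change of *CLDN9* in the scar zone went from -4.51 to -9.24, a value set by the prior count since the remaining IR samples were all at 0.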

How the results depend on the processing

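The genes called at an adjusted p, 0 with edgeR in each comparison, were 4 (border zone), 61 (scar zone), 1 (between zones in sham pigs) and 3 (between zones in IR pigs) with DESeq2, and in the scar zone 3 with limma on log2(TPM + 1) and 1 on log2(TPM + 0.1). At the unadjusted p, the 109 calls of the border zone became 190 with DESeq2, 317 with no filter, and 32 and 54 with limma at the 2 pseudocounts of 1 and 0.1, and the 470 of the scar zone became 878 with no filter and 148 and 239 with limma. Between zones, the 14 calls in sham pigs became 40 with DESeq2, 96 with no filter and, under the replicate block of the pig, 28, and the 250 in IR pigs became 455 with no filter. The replicate block left the adjusted count at 0 and the 250 calls in IR pigs at 233. Leaving out 1 pig at a time gave 69 (without pig 11) to 202 (without pig 9) calls in the border zone, 291 (without pig 11) to 829 (without pig 14) in the scar zone, 15 to 37 (without pig 12) between zones in sham pigs and 73 (without pig 9) to 396 (without pig 2) in IR pigs. It left every adjusted count at 0.

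For the pair in the border zone, leaving out 1 pig gave a log2 sum of IR minus sham of -0.30 to 0.12, where only leaving out pig 11 turned the sign. The log2 ratio of IR minus sham ran from 0.92 to 3.76, that of females minus males from -0.23 (without pig 13) to 3.22, and the sum of females minus males from 0.29 to 0.69. The share of *CLDN6*-only pairs differed by 1.29 percentage points and turned to -1.13 without pig 2 and to -0.25 without pig 5 or pig 13, with a range of -1.13 to 2.97. The *CLDN6* log2 fold change ran from -0.83 (without pig 2) to 1.46 and that of *CLDN9* from -0.72 to -0.02. With all pigs, the *CLDN6* value of 0.44 was 0.22 with sex as covariate and 1.54 with limma on log2(TPM + 0.1). The correlation, negative in part because 1 pool of read pairs is divided, ran from -0.95 to -0.82. The log2 ratio of IR minus sham, 2.33 with 0.5 counts added, was 1.44 with 2 counts added and 3.42 on TPM, so its size depends on the value added to counts of 0. As a description, the scar zone log2 fold changes of 2.35 (*CLDN6*) and -4.51 (*CLDN9*) were 1.82 and -2.53 with limma on log2(TPM + 1), a scale that understates the change of low genes. In the border zone, TPM in place of counts, a prior of 2 counts, library totals, and whole-number tolerances of 0.001 and 0.05 changed no direction or call of the pair. Why the counts of calls move was not tested. A fit of all 16 samples with the pig as a block was not run, since each pig had 1 kind of surgery. The joint count of 45 to 118 a sample and the 86.9% to 99.1% of pairs open to both genes both bear on how finely the 2 genes can be separated, and their parts were not tested.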
